A study of Mus musculus with 6 samples.

Results

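Genes of macrophages and their scavenger receptors were followed in challenged ear skin of 6 mice. The 9 listed genes were Mrc1, Cd163, Cd68, Msr1, Adgre1, Ly6c2, Lyz2, Folr2 and Lyve1, and each was read from the brightest probe set that the platform annotation assigns to that gene alone. Of these, 8 were measured, among 19938 genes in all, and each of the 8 had exactly 1 such probe set. Ly6c2 had 0 probe sets of its own and 2 that are listed for Ly6c1 as well, so no value is given for it.

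The samples were ear pinnae of 3 CLEC4C-DTR/+ mice and 3 littermate controls, with 1 mouse per array and mice 10 to 12 weeks old. CLEC4C-DTR mice carry the diphtheria toxin receptor under the control of CLEC4C, a lectin gene that marks plasmacytoid dendritic cells in humans. Mice of both groups were given 200 ng of diphtheria toxin on days -1, 1, 3 and 5. They were sensitised on the abdomen with 100 µL of 0.5% FITC (fluorescein isothiocyanate, a contact sensitiser) in acetone and dibutyl phthalate on days 0 and 2, and challenged on the right ear with 20 µL on day 6. The sources used here give neither the strain nor the time from challenge to collection. Toxin-free CLEC4C-DTR mice were not analysed here, so effects of the genotype and of the toxin in carriers cannot be told apart. Sensitisation and challenge were the same in both groups. Unchallenged ears were not analysed either, so whether the differences depend on these treatments was not tested. Single samples are called DTR ear 1 to 3 and control ear 1 to 3, after their replicate numbers. Values are log2 RMA (robust multi-array average) intensities from whole skin, and the number of arrays, 3 per group, limits their precision.

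Macrophages of the skin clear dead cells, microbes and modified proteins through surface receptors that bind many ligands. Resident dermal macrophages carry the mannose receptor and the haemoglobin scavenger receptor, whereas monocytes that arrive in inflamed skin acquire macrophage genes as they mature. Interleukin 4 and interleukin 13 raise the mannose receptor and related genes in mouse macrophages, a state often called alternative activation. In whole tissue, more cells of a type and more RNA per cell cannot be told apart.

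The mannose and haemoglobin scavenger receptors were higher in CLEC4C-DTR skin, while the lysozyme gene and the hyaluronan receptor did not pass. Mrc1 rose 2.96-fold, Cd163 2.91-fold, Cd68 1.90-fold and Folr2 1.38-fold, each at a limma adjusted p under 0.05 over all genes, a threshold that 9.32% of all genes passed. Msr1, Adgre1 and Lyve1 had higher means and Lyz2 a lower mean without passing. Thus 4 of 8 measured genes rose and 0 fell with limma, where 5.01% of all genes rose and 4.31% fell. At an unadjusted limma p under 0.05 there were 7 of the 8, 6 higher and 1 lower. Many other genes passed that looser threshold. Fth1, a gene of the iron list just under it, ranked 5428 of 19938 genes by unadjusted limma p. Unadjusted counts, here and below, are therefore given as a description. Mrc1 and Cd163 also exceeded a 2-fold difference, as did 1.67% of all genes upwards and 0.376% downwards. The median log2 difference of the 8 genes was 0.50, against -0.04 for all genes tested.

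**Figure D1:**
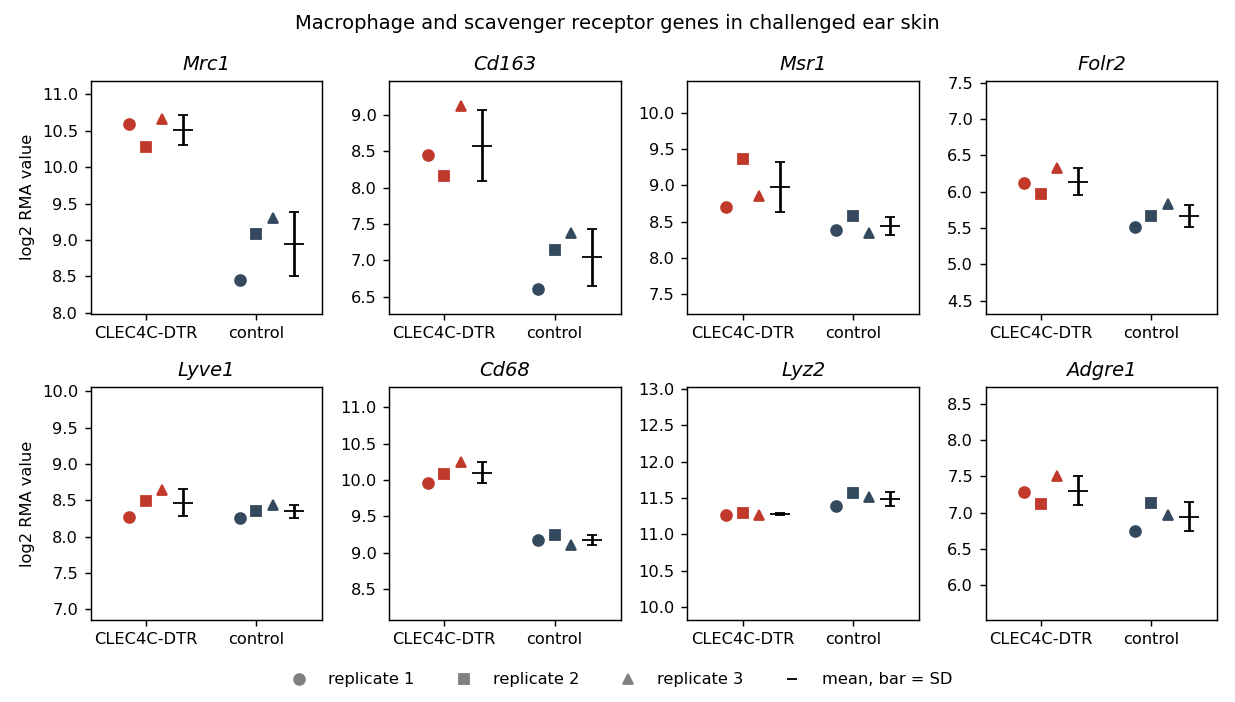
Log2 RMA values (vertical axis, a window of equal height for every gene) of the 8 measured genes in 3 CLEC4C-DTR ears (left of each panel) and 3 littermate control ears (right). Symbols mark the replicate number, and the black bar gives the mean and SD. The groups are separate for Mrc1, Cd163, Msr1, Folr2, Cd68 and, in the opposite direction, Lyz2, and overlap for Lyve1 and Adgre1.

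Upstream sequences are shown for the 3 genes with the largest rises and for Lyz2, which had the opposite sign. Of the 3, Cd68 ranked the arrays differently from Mrc1 and Cd163. The sequences are the 250 bases before the annotated start. They are RefSeq sequences of build GRCm38.p6, 5′ to 3′ on the gene's own strand, and windows matched 6 of the 9 listed genes. Capitals mark matches on either strand to GAGGAA (the core read by PU.1, the master factor of macrophages), TGANTCA (AP-1) and TTGCNNAA (C/EBP), and to a STAT6 type site (TTC and GAA with any 4 bases between them).
Mrc1, GRCm38.p6 chr2:14229164-14229413, + strand: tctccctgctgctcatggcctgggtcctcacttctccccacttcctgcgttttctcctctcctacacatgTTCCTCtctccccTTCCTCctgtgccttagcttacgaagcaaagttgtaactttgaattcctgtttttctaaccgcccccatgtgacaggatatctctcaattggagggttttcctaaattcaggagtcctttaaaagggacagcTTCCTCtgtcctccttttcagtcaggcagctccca
Cd163, GRCm38.p6 chr6:124304401-124304650, + strand: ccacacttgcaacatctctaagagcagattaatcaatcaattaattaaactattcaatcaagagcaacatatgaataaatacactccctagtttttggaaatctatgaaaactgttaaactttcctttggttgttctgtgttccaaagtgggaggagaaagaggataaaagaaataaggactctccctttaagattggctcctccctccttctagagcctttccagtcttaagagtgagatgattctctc
Cd68, GRCm38.p6 chr11:69666171-69666420, - strand: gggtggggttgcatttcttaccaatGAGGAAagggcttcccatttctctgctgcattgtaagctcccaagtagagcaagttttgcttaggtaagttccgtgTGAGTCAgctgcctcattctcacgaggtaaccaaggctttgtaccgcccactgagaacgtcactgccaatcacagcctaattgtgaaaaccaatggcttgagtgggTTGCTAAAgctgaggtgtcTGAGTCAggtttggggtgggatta
Lyz2, GRCm38.p6 chr10:117282273-117282522, - strand: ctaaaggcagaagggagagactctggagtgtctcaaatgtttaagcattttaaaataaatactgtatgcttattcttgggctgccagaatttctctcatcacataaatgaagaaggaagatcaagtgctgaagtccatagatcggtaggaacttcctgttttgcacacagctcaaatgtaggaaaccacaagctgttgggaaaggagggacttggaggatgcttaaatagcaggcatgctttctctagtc

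The Mrc1 window held 3 matches to GAGGAA, all on the opposite strand and so written TTCCTC. The Cd68 window held 1 match to GAGGAA, 2 to TGANTCA and 1 to TTGCNNAA. Cd163 and Lyz2 had 0 matches to any of the 4 patterns within these bases. No match overlapped another. Over 32851 windows of the same length, 23.3% held GAGGAA, 6.75% TGANTCA, 5.85% the STAT6 type site and 9.56% TTGCNNAA, so that matches of this kind are common and are given as a description.

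Among the receptors for sugars and protein complexes, Mrc1 and Cd163 had the largest differences. Mrc1, whose product is the mannose receptor (CD206), an endocytic lectin for mannose and collagen fragments, was at 10.60, 10.27 and 10.66 in DTR ears 1, 2 and 3, against 8.45, 9.08 and 9.30 in the controls. Each CLEC4C-DTR ear lay above every control ear, the nearest being DTR ear 2 and control ear 3. The log2 difference was 1.57 (SE 0.21, 95% interval 1.08 to 2.05, adjusted p = 0.0123). The groups did not overlap in 6 of the 8 genes, 5 higher and 1 lower in CLEC4C-DTR skin. Over all genes 33.0% were separate in this way, 14.0% higher and 19.0% lower.

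Cd163, the receptor that takes up haemoglobin bound to haptoglobin, was at 8.45, 8.17 and 9.13 in CLEC4C-DTR ears, against 6.61, 7.14 and 7.38 in control ears. The groups were again separate, with a mean of 8.58 ± 0.49 in carriers and 7.04 ± 0.39 in controls (SD, n = 3 each). Its log2 difference was 1.54 (SE 0.27, adjusted p = 0.0186). Mrc1 passed in 5 of 6 fits with 1 array left out, the exception being that without DTR ear 3 (adjusted p = 0.0535). Cd163 passed in 3 of 6, and not without DTR ear 3 (adjusted p = 0.0578), control ear 1 (adjusted p = 0.0627) or control ear 3 (adjusted p = 0.0661). Calls over all genes shifted in these fits too. Without DTR ears 1, 2 and 3, 1342, 289 and 70 genes rose, against 998 with all arrays. Without control ears 1, 2 and 3, 108, 730 and 49 rose. Falls numbered 1275, 177 and 38, then 59, 489 and 18, against 860. Counts with an array left out, here and below, are to be read beside these.

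Folr2, the folate receptor beta of tissue macrophages, showed a smaller difference with the same ranking of the arrays. Its log2 values were 6.12, 5.97 and 6.33 in CLEC4C-DTR ears and 5.52, 5.67 and 5.82 in control ears. The groups were separate by a narrow margin, between DTR ear 2 and control ear 3. Folr2 differed by 0.47 (log2, SE 0.12, adjusted p = 0.0494) and did not pass in any of the 6 fits with 1 array left out (adjusted p from 0.0635 to 0.147). In Mrc1, Cd163 and Folr2 alike, control ear 1 was lowest and control ear 3 highest among controls, while DTR ear 2 was lowest and DTR ear 3 highest among carriers. This exact ranking of all 6 arrays was noticed after the values were seen, and 35 of 19938 genes (0.176%) had it.

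Msr1, the class A scavenger receptor for modified lipoproteins, ranked the arrays differently. It was at 8.70, 9.36 and 8.85 in CLEC4C-DTR ears, against 8.39, 8.58 and 8.34 in controls. The groups were separate, but DTR ear 2, the lowest carrier for Mrc1 and Cd163, was the highest here. Msr1 differed by 0.54 (log2, SE 0.16, adjusted p = 0.0804). Without DTR ear 1 the difference was 0.67 and passed (adjusted p = 0.0341), and in the other 5 such fits the adjusted p was 0.105 to 0.240.

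Lyve1, a hyaluronan receptor of lymphatic endothelium and of some perivascular macrophages, differed little between the groups. Its values were 8.27, 8.49 and 8.63 in CLEC4C-DTR ears and 8.26, 8.35 and 8.44 in control ears, so that the groups overlapped. Lyve1 differed by 0.11 (log2, SE 0.11, 95% interval -0.14 to 0.37, adjusted p = 0.555). Because lymphatic vessels also make Lyve1, the lymphatic endothelial markers were set beside it. Of 6 measured lymphatic markers (7 listed), 0 rose and 1 fell. Their mean log2 level was 6.66 to 6.75 in CLEC4C-DTR ears and 6.69 to 6.88 in control ears. The fall was that of Reln, a secreted matrix protein made by lymphatic endothelium, by 0.44 (log2, adjusted p = 0.0485). That call was lost without DTR ear 2, DTR ear 3 or any 1 of the 3 control ears, where limma called 0 of the markers and 3 had an unadjusted p under 0.05. Pdpn, the membrane glycoprotein podoplanin, differed by 0.52 (adjusted p = 0.0532). The part of lymphatic vessels in the Lyve1 values was not tested.

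**Figure D2:**
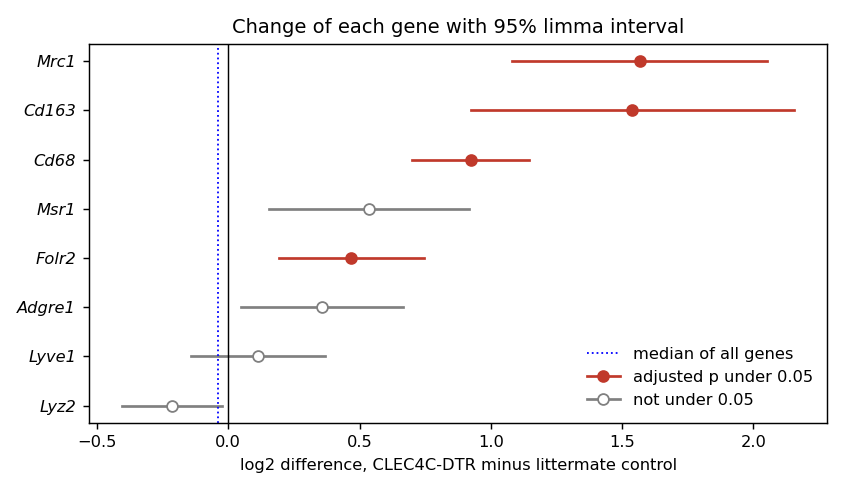
Log2 difference (horizontal axis, CLEC4C-DTR minus littermate control) of each measured gene with its 95% interval from limma, ordered by size. Filled points passed an adjusted p of 0.05, and the dotted line is the median of all genes, -0.04. Mrc1 and Cd163 lie at 1.57 and 1.54 and Lyve1 at 0.11.

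Among the general macrophage genes, Cd68 had the tightest groups of those that rose. Cd68, a lysosomal membrane protein of macrophages and other phagocytes, was at 9.96, 10.08 and 10.25 in CLEC4C-DTR ears, against 9.17, 9.25 and 9.11 in controls. The gap between the groups was wider than the range within either. Cd68 differed by 0.92 (log2, SE 0.10, adjusted p = 0.00937), and Cd68 passed in 6 of 6 fits with 1 array left out (adjusted p from 0.00130 to 0.0482).

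Adgre1, which encodes the F4/80 surface antigen of mouse macrophages, did not pass. Its values were 7.28, 7.11 and 7.51 in CLEC4C-DTR ears and 6.74, 7.13 and 6.96 in control ears. Control ear 2 lay just above DTR ear 2, so the groups overlapped. Adgre1 differed by 0.36 (log2, SE 0.13, 95% interval 0.05 to 0.67, adjusted p = 0.132).

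Lyz2, the lysozyme gene of macrophages, monocytes and neutrophils, stood on the other side of 0. It was at 11.27, 11.30 and 11.26 in CLEC4C-DTR ears, against 11.38, 11.57 and 11.51 in controls. The carriers had an SD of 0.02 (n = 3) and all lay below the controls. The log2 difference was -0.21 (SE 0.08, 95% interval -0.40 to -0.02, adjusted p = 0.139), and the adjusted p stayed at 0.146 to 0.323 with each array left out. Lyz1, its neighbour in the lysozyme family, differed by 0.13 (adjusted p = 0.612).

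Neutrophil markers moved with the group in the same ears. Of 9 measured neutrophil markers (10 listed), 7 rose and 0 fell, with a median log2 difference of 2.21. Their mean log2 level was 8.59 to 9.88 in CLEC4C-DTR ears and 7.28 to 7.62 in control ears. S100a9 and S100a8, the calprotectin subunits, had log2 values of at least 13.05 and 12.82 in CLEC4C-DTR ears and at most 11.94 and 11.75 in control ears (adjusted p = 0.00802 and 0.00937). Relative to the mean of the controls, the marker mean was 1.09, 2.38 and 2.23 higher in DTR ears 1, 2 and 3 (log2), so ear 1 was the lowest carrier, as it was for Msr1, Cd68 and Lyve1 and was not for the other 5 genes. The number that rose was 3 without DTR ear 2, 2 without DTR ear 3, 3 without control ear 1 and 2 without control ear 3. Over all genes, 289, 70, 108 and 49 rose in the same fits, against 998 with all arrays. The part of neutrophils in the Cd68, Msr1 and Lyz2 values was not tested.

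**Figure D3:**
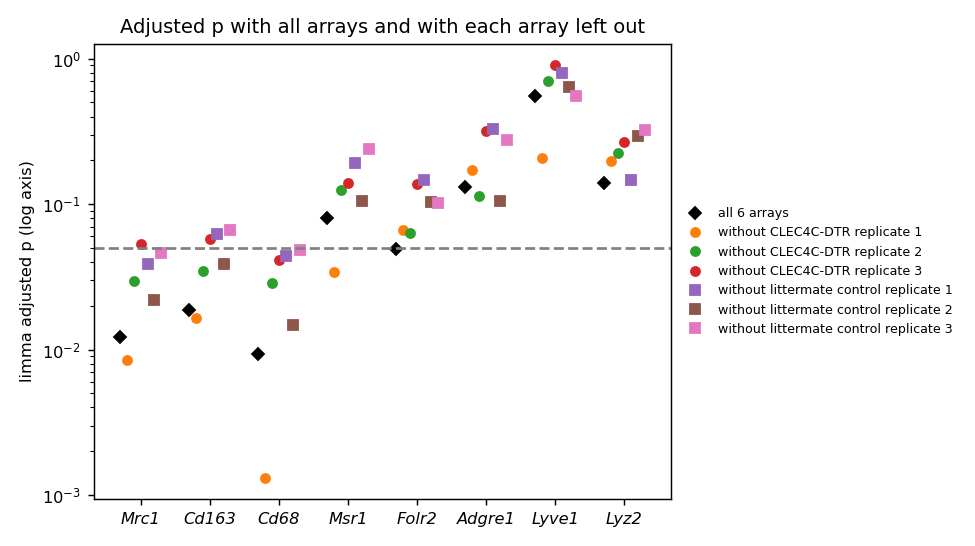
Limma adjusted p (vertical log axis) of each measured gene with all 6 arrays (black diamonds) and with each array left out (circles, a CLEC4C-DTR replicate; squares, a control replicate). The dashed line is 0.05. Every point of Cd68 lies under the line, the largest at 0.0482, while Folr2 lies under it only with all arrays.

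Differences between the genes themselves were then compared within arrays, where the scaling of an array cancels. Of 28 pairs of the 8 genes, 18 (64.3%) had within-array log2 differences that did not overlap between the groups, close to the 67.9% found when the 8 genes were paired with all other genes. The exact two-sided permutation test of a pair cannot go below 0.1 with 3 arrays against 3, and the smallest value adjusted over the 28 pairs was 0.156. Ordered by size of change, from Mrc1 through Cd163, Cd68, Msr1, Folr2, Adgre1 and Lyve1 to Lyz2, 1 of 7 neighbouring pairs was separate between the groups, that of Lyve1 and Lyz2. Mrc1 exceeded Cd163 by 0.03 in its change, with a 95% interval of -0.53 to 0.59 (log2). Mrc1 exceeded Adgre1 by 1.21 (interval 0.68 to 1.74) and Lyve1 by 1.45 (interval 0.73 to 2.17). Cd68 exceeded Lyz2 by 1.14 (interval 0.85 to 1.43). These intervals used the pooled variance of each pair without moderation and were not adjusted over the 28 pairs, of which 17 had an interval without 0. No pair passed the adjusted permutation test, so unequal changes are given as a description.

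The genes whose pattern over the 6 arrays was nearest to each of the 8 were found by the Euclidean distance between mean-centred log2 values. The 3 nearest to Mrc1 were Ms4a4a, Cd163 and Ccl8, at distances of 0.47, 0.50 and 0.52, and the 3 nearest to Cd163 were Ccl8, Mrc1 and Ms4a4a. Ms4a4a, a tetraspan membrane protein of macrophages, was at 9.81, 9.82 and 10.02 in CLEC4C-DTR ears, against 8.10, 8.45 and 8.37 in controls (log2 difference 1.57, adjusted p = 0.00499). Ccl8, a chemokine made by mouse skin macrophages, was at 9.13, 9.07 and 9.77 in CLEC4C-DTR ears, against 7.45, 7.99 and 7.88 in controls (log2 difference 1.55, adjusted p = 0.0123). Both were chosen for this likeness over the same arrays, so their similar values follow from the choice and are given as a description.

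Nearest to Cd68 were Slc26a9, an anion transporter, Pstpip1, a cytoskeletal adaptor of blood cells, and the histone gene H4c9, at distances of 0.15 to 0.17. Nearest to Msr1 were Padi4, the enzyme that citrullinates histones in neutrophils, Tent5c and Tgif1. Nearest to Adgre1 were Scpep1, Lmf2 and Itm2c, nearest to Folr2 were Olfr1166, Renbp and Parpbp, and nearest to Lyve1 were Vmn1r216, Abcc3 and Vmn2r71. Nearest to Lyz2 were Mob3b, Kif2b and En2. For the genes with small differences the distance is small for any gene that changed little, and such neighbours are a description of 6 arrays only.

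Most general mononuclear phagocyte genes passed the test with all arrays. Of 11 measured members of that list (12 listed), 9 rose, 1 fell and 1 did not pass, with a median log2 difference of 0.86. Laptm5, a lysosomal protein of blood cells, was at 11.32 to 11.51 in CLEC4C-DTR ears and 10.09 to 10.61 in control ears (adjusted p = 0.0107). Itgam, the integrin chain CD11b of myeloid cells, rose 3.35-fold (adjusted p = 0.0138) and the lysosomal protease Ctss 1.71-fold (adjusted p = 0.0171). The fall was that of Mertk, a receptor for dying cells on mature macrophages, by 0.51 (log2, adjusted p = 0.0381), and it is named because it was the only one. The number that rose was 3 without DTR ear 2, 0 without DTR ear 3, 2 without control ear 1 and 2 without control ear 3. Over all genes, the rises in the same fits were 289, 70, 108 and 49, against 998 with all arrays. In the limma fit with 0 calls, 11 members had an unadjusted p under 0.05. Mertk passed without control ear 2 and in none of the other 5 fits with an array left out. Relative to the mean of the controls, the list mean was 0.66, 0.94 and 0.86 higher in DTR ears 1, 2 and 3 (log2). The part of neutrophils in the values of this list was not tested.

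Markers of resident dermal macrophages were mixed. All 16 listed genes were measured, of which 2 rose and 1 fell, and the median log2 difference was 0.02. Pf4, a platelet chemokine also made by macrophages, was at 9.56 to 10.63 in CLEC4C-DTR ears and 8.47 to 9.27 in control ears (adjusted p = 0.0354). Ccl24, an eosinophil chemokine, rose 2.37-fold (adjusted p = 0.0203). Cx3cr1, the fractalkine receptor, fell by 0.61 (log2, adjusted p = 0.0242). Without DTR ear 2, control ear 1 or control ear 3, limma called 0 members, with 5 at an unadjusted p under 0.05 in each. The list held 1 rise and 0 falls without DTR ear 3 or control ear 2.

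Monocyte genes were higher in part. Of 11 measured classical monocyte genes (12 listed), 4 rose and 0 fell. The other 7 did not pass, and 9 of the 11 had higher means, as had 8329 of all 19938 genes. Ccr2 differed by 0.24, Plac8 by 0.30 and S100a4 by -0.32 (log2, adjusted p = 0.245, 0.436 and 0.0595). Cd14, the co-receptor for lipopolysaccharide, rose 8.53-fold (adjusted p = 0.0169), the matrix proteoglycan Vcan 1.57-fold (adjusted p = 0.0233) and the coagulation factor F10 1.80-fold (adjusted p = 0.0260). Cd14 was at 8.94, 10.98 and 10.94 in DTR ears 1, 2 and 3, and the part of neutrophils in its values was not tested. There was 1 rise without DTR ear 2 or control ear 1, and 0 without DTR ear 3 or control ear 3, with 6 members at an unadjusted p under 0.05 in each of the last pair of limma fits. Of 8 patrolling monocyte genes 2 rose, Pglyrp1, a peptidoglycan-binding protein also stored by neutrophils, 3.52-fold (adjusted p = 0.0313) and the integrin chain Itgal 2.07-fold (adjusted p = 0.0457). In this list 5 of the 8 had higher means (8329 of 19938 over all genes), and Eno3 differed by -0.64 (log2, adjusted p = 0.0503). There were 4 rises without DTR ear 1, 1 without control ear 2 and 0 in the other 4 fits, where 3 or 4 had an unadjusted p under 0.05.

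**Figure D4:**
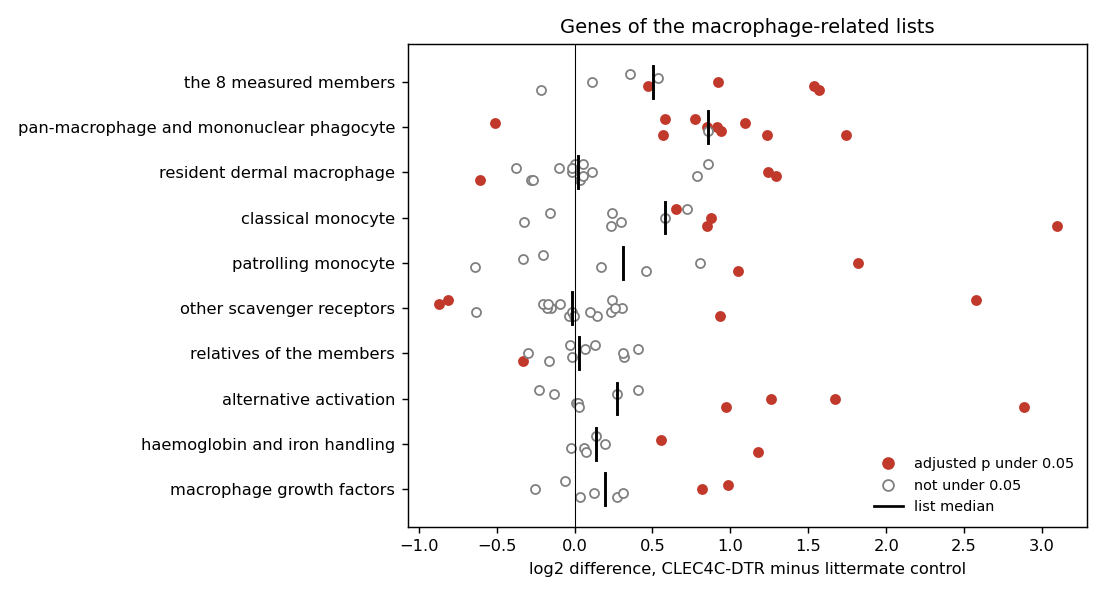
Log2 differences (horizontal axis, CLEC4C-DTR minus littermate control) of the 8 measured genes and of the related gene lists, 1 point per gene. Filled points passed an adjusted p of 0.05, and the black bar is the list median, 0.50 for the 8 genes, 0.86 for general mononuclear phagocyte genes and 0.02 for resident dermal macrophage markers. Vertical position within a list has no meaning.

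Other scavenger receptors moved in both directions. Of 19 measured, 2 rose, 2 fell and 15 did not pass, and the median log2 difference was -0.02. Cd36, a receptor for fatty acids and oxidised lipoproteins that fat and endothelial cells also carry, was at 8.49 to 8.68 in CLEC4C-DTR ears and 9.28 to 9.49 in control ears (adjusted p = 0.00937). Colec12, a collectin scavenger receptor of endothelial and stromal cells, fell by 0.87 (log2, adjusted p = 0.00989). Cxcl16, a membrane-bound chemokine that also binds oxidised lipoproteins, rose 1.91-fold (adjusted p = 0.0172). Olr1, the lectin-like receptor for oxidised lipoproteins, rose 5.97-fold (adjusted p = 0.0273) and is named outside the rule, as the fourth by p. Marco, a class A relative of Msr1, differed by -0.04 (adjusted p = 0.858). The rises numbered 1 without DTR ear 2 or control ear 2 and 0 without DTR ear 3, control ear 1 or control ear 3, where 2, 2 and 4 had an unadjusted p under 0.05 upwards with limma. Colec12 fell in all 6 of these fits, and Cd36 in all but that without control ear 3.

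Relatives of the 8 genes mostly did not pass. Of 10 measured (12 listed), limma called 0 higher, with 0 higher at an unadjusted p under 0.05, and 1 lower. That was Mrc2, the collagen-binding relative of the mannose receptor made by stromal cells, at 6.15 to 6.25 in CLEC4C-DTR ears and 6.43 to 6.57 in control ears (log2 difference -0.33, adjusted p = 0.0437). Mrc2 was not called under median centring, a further quantile normalisation or 4 of the other settings that used all arrays and tested it, and of the fits with 1 array left out it passed only in that without DTR ear 1, where 1 relative also rose. Folr1, the epithelial folate receptor, differed by -0.17 (adjusted p = 0.341).

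Alternative activation genes, which like Mrc1 respond to interleukin 4 and interleukin 13, were higher for 4 of 11 measured genes, and 0 fell. The other 7 did not pass. The median log2 difference was 0.27, and 9 of the 11 had higher means (8329 of 19938 over all genes). Among those that did not pass, Retnla differed by 0.01, Ccl17 by -0.13 and Irf4 by -0.23 (log2, adjusted p = 0.989, 0.723 and 0.131). Whether macrophages were alternatively activated was not tested. Arg1, an arginase, was at 9.53 to 10.12 in CLEC4C-DTR ears and 6.79 to 6.91 in control ears (adjusted p = 0.00120). Pdcd1lg2, the checkpoint ligand PD-L2, rose 3.18-fold (adjusted p = 0.0170) and Il4ra, the shared receptor chain of both cytokines, 2.40-fold (adjusted p = 0.0178). Without DTR ear 2, DTR ear 3, control ear 1 or control ear 3, 1 of these genes rose.

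In the list of haemoglobin and iron handling, 2 of 7 measured genes rose (8 listed), and 0 fell. The other 5 did not pass, among them Slc40a1 and Blvrb, which differed by 0.06 and -0.02 (log2). In this list 6 of the 7 had higher means (8329 of 19938 over all genes), and a link to Cd163 was not tested. Hmox1, haem oxygenase, rose 2.26-fold (adjusted p = 0.0274). Ftl1, the ferritin light chain, rose 1.47-fold (adjusted p = 0.0229). There was 1 rise without control ear 1, and limma called 0 without DTR ears 2 or 3 or control ears 2 or 3, with 2 at an unadjusted p under 0.05 in each. Of 8 growth factors and chemokines of myeloid cells, Csf2, which encodes GM-CSF, rose 1.76-fold (adjusted p = 0.0174) and Csf3, which encodes G-CSF, 1.98-fold (adjusted p = 0.0442). Both were dim, each at a mean log2 level of 5.41 (percentiles 28.7 and 28.6 of all genes). The other 6 did not pass, and 6 of the 8 had higher means (8329 of 19938 over all genes). Csf1 differed by 0.03 (log2, adjusted p = 0.901) and Il34 by 0.12 (adjusted p = 0.558). The rises numbered 1 without DTR ear 2 or control ear 2 and 0 without DTR ear 3 or control ears 1 or 3, where 2 or 3 had an unadjusted p under 0.05 with limma.

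Markers of other cells in skin were read beside these genes. Of 9 dendritic and Langerhans cell markers 4 rose. The smallest p were those of Fscn1, an actin-bundling protein (log2 0.98), and Itgax, an integrin chain also carried by macrophages (log2 0.53). Of the 9, 6 had higher means (8329 of 19938 over all genes). Cd207, Xcr1 and Zbtb46 did not pass and differed by -0.36, -0.04 and -0.03 (log2). The mean log2 level of the markers was 6.34 to 6.48 in CLEC4C-DTR ears and 5.94 to 6.03 in control ears. Without any single array other than DTR ear 1, 1 of them rose. Of 5 measured T cell markers (7 listed) Cd2 rose and Cd4 differed by 0.36 (adjusted p = 0.0502), and Cd2 was not called without control ear 3, while 3 T cell markers rose without DTR ear 1. Of 7 blood endothelial markers Pecam1 rose, by 0.40 (log2), and Tek differed by -0.23, and 5 of the 6 reduced fits gave 0 calls (1 to 3 at an unadjusted p under 0.05 with limma). Of 6 fibroblast markers Dpt fell by 0.96 and Pdgfra rose by 0.53 (log2), and 4 of the 6 reduced fits gave 0 calls (3 to 5 at an unadjusted p under 0.05 with limma). Limma called 0 of 6 mast cell, 0 of 6 plasmacytoid dendritic cell and 0 of 7 keratinocyte markers, with 0, 2 and 3 at an unadjusted p under 0.05. Among these, Kit and Cpa3 differed by 0.12 and -0.23, Tcf4 and Bst2 by -0.41 and 0.57, and Flg2 and Trp63 by -1.72 and -0.33 (log2). Of the 6 plasmacytoid markers, 1 had a higher mean (8329 of 19938 over all genes). Siglech and Ccr9 differed by -0.17 and -0.26, at mean log2 levels of 5.55 and 5.57. Ly6d, Cox6a2, Bst2 and Tcf4 were at 11.35, 9.56, 9.12 and 8.97, and the part of other skin cells in their values was not tested. Whether the number of plasmacytoid dendritic cells differed was not tested. Without DTR ear 1, 1 plasmacytoid marker and 2 keratinocyte markers were called lower, and without control ear 2, 1 plasmacytoid marker was called higher. The part of these cells in the values of the 8 genes was not tested.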

How the data were processed

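Ear skin RNA was read on Affymetrix Mouse Gene 1.0 ST arrays, per the series' design text and the labels. The deposited table holds log2 values that the authors made by RMA, per the same text, and its software and genome build are not stated there. RMA puts all arrays on nearly one distribution, so a shift shared by most genes would be lost. Of 35556 probe sets, 21789 have 1 symbol, 1621 several and 12146 are not listed. The brightest single-symbol probe set was kept per gene, giving 19938 genes.

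The groups were compared with limma 3.58.1 (R 4.3.3, lmFit and eBayes, no covariate, two-sided), with Benjamini-Hochberg adjustment over all genes and a threshold of 0.05. Adjusted p-values are from that fit, or from the same model under the alternative named beside the value, such as 1 array left out. Those of pairs are from exact permutation tests over arrays. The intervals of pairs are t intervals without moderation or adjustment. The fit was tested on simulated data. The genes, lists and tests were chosen with earlier results of these data known. Named genes are the 9 listed, up to 3 called genes with the smallest p per pathway list, up to 2 per marker list, Ly6c1 (not measured), Lyz1, Mrc2, Folr1 and Marco, and the 3 nearest in pattern to each. Some further genes of the lists, most of them not called, are named outside this rule. No pair of arrays was identical. Figures used matplotlib 3.10.9.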

Additional observations from a re-analysis of the deposited data

How the results depend on the processing

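The 8 genes kept the sign of their difference under every alternative in which they were tested. The number called was 3 to 5 of 8 with median centring, a further quantile normalisation, genes above the median level only (where Folr2 was too dim to be tested), the mean of the probe sets of a gene, trended and robust moderation, array weights or the replicate block. It was 1 with all probe sets of the table, when 95 probe sets passed (57 higher, 38 lower), against 1858 genes in the fit reported. Cd68 was the gene still called there, and the adjusted p was 0.0560 for Mrc1, 0.0629 for Cd163 and 0.101 for Folr2. Without moderation of variances limma's estimates gave 0 called members and 0 called genes (0 higher, 0 lower), with 5 and 4387 at an unadjusted p under 0.05. With each array left out, 1 to 4 of the 8 genes were called, and 67 to 2617 of all genes (49 to 1342 higher, 18 to 1275 lower). Pairs of the 8 genes that were separate between the groups then numbered 18 to 23. Leaving out an array can only keep or raise that count, so it is no check of the pairs. The cause of these shifts was not tested. Replicate numbers are shared by the groups, but the deviations of same-numbered ears correlated at -0.06, 0.22 and 0.10, so they were not taken as pairs. With the replicate block, 5 of the 8 genes and 2084 genes were called, and Msr1 passed (adjusted p = 0.0315). The table holds no measure of background, so no gene could be called absent.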
